A study of Mus musculus with 2 samples.

Results

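Long intergenic non-coding RNAs (lincRNAs) were examined through the 1729 array probes that are named for a numbered lincRNA exon and carry the sign of the minus strand, out of 59729 probes other than controls. Membership was set by probe name, although the set was chosen with earlier results of these data known. Of these, 1727 had a usable spot on both arrays, and the other 2 were set aside because their control spot was marked as non-uniform. Each member was spotted once, and the exon numbers ran from 10002 to 12127. For 1723 members the array also held a usable probe to the same numbered exon with the plus sign, so the signal of an exon could be followed on both signs. The files hold no probe sequence, gene name or exon coordinate for these probes, so members are called by exon number, and no locus or sequence is shown.

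LincRNAs are transcribed from stretches of the genome between protein-coding genes and are spliced and often polyadenylated like mRNAs, but are not known to be translated. Many are made at low levels and in few cell types, and those with a known role act on chromatin, on transcription of neighbouring genes, or as binding partners of proteins and microRNAs. Many loci were first outlined from chromatin marks of active transcription, which do not tell the strand, and arrays therefore often carry a probe to each strand of a putative exon. Whether the sign in the probe name gives the strand of the exon or that of the probe is not stated in the sources used here.

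The question was how this set of lincRNA exons changed in lungs injured by paraquat, a herbicide that causes pulmonary fibrosis. Male BALB/c mice of 8 weeks were injected intraperitoneally with 10 mg/kg paraquat dissolved in saline, once per day for 5 days, and controls were given the same volume of saline. The lower lobe of the right lung was taken on day 12. According to the labels, 20 mice were used with 10 per group, 70% of the paraquat group died, and 3 lungs per group were mixed into 1 RNA sample. The number of control mice differs between the labels and the methods text. One 1-colour array was run per group. The data therefore hold no spread between animals, no test was run, and "higher" and "lower" below compare 2 arrays. With so few arrays, precision is limited throughout. As lung tissue holds many cell types, a change in the number of cells of a type and a change in RNA per cell cannot be told apart. Marker genes of lung cell types carry no name in these files, so the tissue label was not checked.

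Signals are given as background-subtracted spot intensities in scanner units, and differences as paraquat minus control log2 values after quantile normalization of both arrays over 59625 probes. The paraquat array was dimmer, with a median log2 signal of 4.60 over those probes against 5.43 on the control array, so a normalized fold can differ from the ratio of the 2 signals printed. A probe was called detected where the scanner software marked its spot as well above background. No probe was saturated. Probes designed to match nothing had median signals of 3.86 in the control lungs and 3.06 after paraquat, and 9.25% and 4.25% of their 1200 spots per array were marked as detected all the same.

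Most minus-strand lincRNA exons were dim, and a few carried most of the signal. The median member had a signal of 37.7 in the control lungs and 18.3 after paraquat, with ranges of 3.86 to 70187 and 2.63 to 79987. The control value of 3.86 was also the lowest over all probes and the median of the match-nothing probes. Wherever it is printed it marks the floor of the control array and not a measured level. A signal of at least 100 was reached by 539 members in the control lungs and 349 after paraquat. A signal of at least 1000 was reached by 109 and 79 members, and a signal of at least 10000 by 18 and 12. The 10 brightest members held 39.6% of the summed signal of all members in the control lungs and 49.3% after paraquat, and 8 of them were the same. Of the 100 brightest members, which held 80.4% and 86.1% of the sum, 85 were shared. The bright end of the set was thus largely made up of the same exons on both arrays.

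The 5 brightest members differed by less than 2-fold between the arrays, both in raw signal and after quantile normalization. Exon 10608 gave signals of 70187 in the control lungs and 62343 after paraquat, a normalized log2 difference of -0.20 with a spot error of 0.20. The spot error is the software's own error estimate for each spot carried over to the log2 difference, and it covers neither animals nor hybridization. Exon 12032 gave 57473 and 67563, a log2 difference of 0.25. Both differences were about as large as the spot error. Exon 10315 gave 49494 in the control lungs and 79987 after paraquat, a log2 difference of 0.68. This difference was 0.06 relative to other probes of like brightness in the same area of the array. Exon 12118 gave 38251 and 26780, a difference of -0.33, and exon 10974 gave 28130 and 16131, a difference of -0.56. The values of these exons depended on the scaling. When the arrays were aligned on their 75th percentile instead, the differences were 0.75 for exon 10608, 1.16 for exon 12032 and 1.62 for exon 10315, and those of exons 12118 and 10974 turned to 0.41 and 0.12. No direction is therefore given for exons 10608, 12118 and 10974, and exons 12032 and 10315 were higher after paraquat under each scaling.

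Fewer members were detected in the paraquat-treated lung. On the control array 1081 members (62.6%) were detected, and on the paraquat array 936 (54.2%). Over all probes the shares were 62.7% and 58.6%, and over the plus-strand probes of the same exon set 53.5% and 49.7%. Detection on both arrays was found for 863 members, on the control array only for 218 (12.6%), on the paraquat array only for 73 (4.23%), and on neither for 573. Over all probes, 8.61% were detected on the control array only and 4.47% on the paraquat array only. The loss was thus larger than the gain among all probes too. The members' share on the control array only was above that of all probes, and their share on the paraquat array only was close to it. The share of match-nothing spots that were marked as detected was also lower on the paraquat array. How far background set these counts was not tested.

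Among the 863 members detected on both arrays the median log2 difference was -0.01, with a range of -4.14 to 4.33 and an SD over probes of 1.08. Over all probes detected on both arrays the median was -0.04 and the SD was also 1.08. Of the members, 610 (70.7%) lay within 2-fold and 740 (85.7%) within 3-fold. The median and the spread of the members thus lay close to those of all probes. Across these 863 probes, which share the same 2 hybridizations, the log2 signals on the arrays had a Pearson correlation of 0.878 and a Spearman correlation of 0.793.

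**Figure D1:**
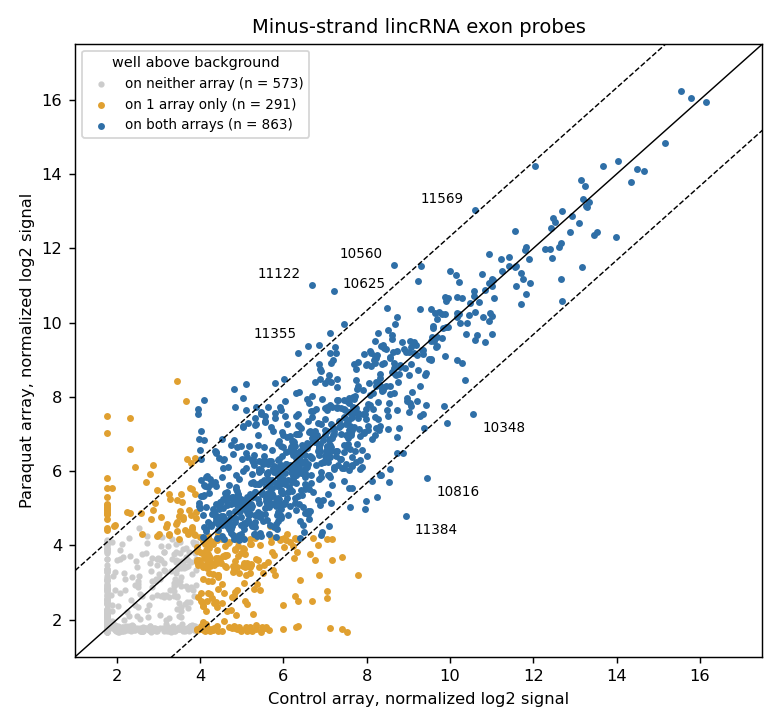
Normalized log2 signal of each minus-strand lincRNA exon probe on the control array (horizontal axis) and on the paraquat array (vertical axis). Colours give on how many arrays the probe was well above background, the solid line marks equal signal, and the dashed lines mark 5-fold. The numbers name the 5 members above and the 3 below that passed 5-fold under all 4 settings used for naming. Most of the 863 members detected on both arrays lie near the solid line, and most points beyond the dashed lines are dim probes detected on 1 array only.

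A change of 5-fold or more was as frequent as on the whole array in 1 direction and more frequent in the other. Of 1154 members with detected signal on 1 or both arrays, 59 (5.11%) reached at least 5-fold higher signal after paraquat, beside 5.54% of all probes detected so. At least 5-fold lower were 89 members (7.71%), beside 4.56% of all probes. Of the plus-strand probes, 50 of 1008 (4.96%) were higher and 34 (3.37%) were lower. The split between higher and lower moved with the scaling, to 30 higher (2.60%) and 177 lower (15.3%) with no normalization, beside 2.48% and 10.4% of all probes. When each difference was taken relative to nearby probes, 32 (2.77%) were higher and 86 (7.45%) lower, beside 3.85% and 4.91%. The share of lower calls was higher on the minus strand than on the plus strand in 16 of 18 settings. All settings re-process the same 2 arrays and many overlap, so their number adds no independent support. In the remaining 2 the dim signals were compressed, and few probes passed 5-fold. With normexp background correction 3 members (0.260%) were lower beside 0.496% of plus-strand probes, and without background subtraction 7 members (0.607%) beside 0.694%.

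Most of the lower members were detected on the control array only. When only members detected on both arrays were counted, 25 (2.90%) were at least 5-fold higher, beside 2.77% of all probes. At least 5-fold lower were 17 (1.97%), beside 1.78% of all probes. Both shares were then close to the background, so in this count the members did not stand apart. When a signal below detection was raised to the lowest detected signal of its array (19.4 in the control lungs and 13.2 after paraquat), 33 members (2.86%) were higher and 33 (2.86%) lower, beside 3.07% and 2.04% of all probes. In the corresponding count of plus-strand probes, 23 (2.28%) were higher and 12 (1.19%) lower.

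The direction of change followed the place of a probe on the array. The array has 164 columns, and members in columns 1 to 64 that were detected on both arrays had a median log2 difference of 0.46, against -0.18 in the columns above 80. In columns 1 to 64, 46 of 404 members (11.4%) were at least 5-fold higher and 26 (6.44%) lower. In the columns above 80, 12 of 644 (1.86%) were higher and 48 (7.45%) lower. All probes had the same gradient for higher calls, with 10.3% in columns 1 to 64 and 2.58% above column 80, so lincRNA exons did not stand apart in it. The median member signal in columns 1 to 64 and above column 80 was 21.9 and 50.6 on the control array, and 17.6 and 21.1 on the paraquat array. The part of this unevenness in the calls was not tested beyond the correction given below. For lower calls all probes held 4.55% and 4.42%, and the plus-strand exon probes 5.18% and 1.88%. The share of lower members was therefore above that of all probes on both sides of the array, whereas most higher members came from 1 side. Of the 59 higher members, 31 were still at least 5-fold higher when corrected by the 50 nearest detected probes of like brightness. Of the 89 lower members, 76 still passed 5-fold. With this correction the share of all probes called higher went from 5.54% to 3.85%, and that called lower from 4.56% to 4.91%. Over the whole array the share of higher calls thus fell with this correction, while that of lower calls rose slightly. These are net shares and do not tell how many of the original calls were kept.

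**Figure D2:**
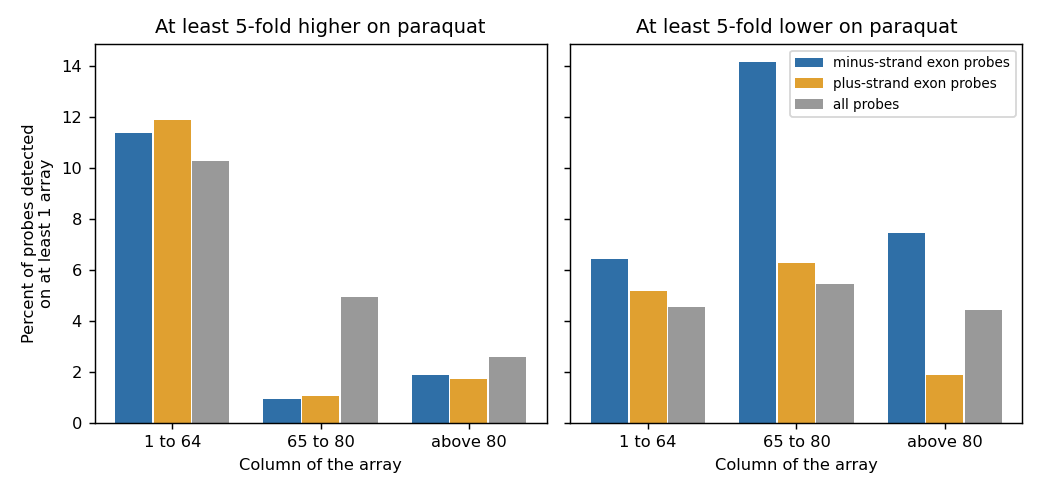
Percent of probes detected on at least 1 array that were at least 5-fold higher (left) or lower (right) on the paraquat array, by array column, for minus-strand exon probes, plus-strand exon probes and all probes. Higher calls in columns 1 to 64 reached 11.4% of minus-strand probes, 11.9% of plus-strand probes and 10.3% of all probes. Lower calls were more frequent among minus-strand probes than in the other sets in each zone, with 14.2% of 106 probes in columns 65 to 80.

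The minus-strand probes of other lincRNA sets had smaller shares of lower calls. Of 152 detected minus-strand probes from the set named for mouse lincRNAs, 17 (11.2%) were at least 5-fold higher and 3 (1.97%) lower. Of 250 detected minus-strand probes from the set named for human lincRNAs, 13 (5.20%) were higher and 3 (1.20%) lower. The plus-strand probes of these sets lay nearer to the background of 4.56%, with 7 of 140 (5.00%) lower in the mouse set and 11 of 247 (4.45%) in the human set. These shares rest on 1 array per group and their differences were not tested.

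The members that were detected on both arrays and changed at least 5-fold under 4 settings (75th percentile, loess, normexp and quantile) were 5 higher and 3 lower ones. The share of all probes that pass all 4 settings is not given here. Under normexp, with detection on at least 1 array, 0.520% of members were higher and 0.260% lower, beside 0.863% and 0.599% of all probes. The members were thus not called more often than the whole array in that setting. Exon 11122 was the member with the largest difference among those detected on both arrays, with a signal of 141 in the control lungs and 1699 after paraquat. Its log2 difference was 4.33 (20.2-fold) with a spot error of 0.21. It lies in column 46, within the zone where higher calls were frequent, and relative to nearby probes its difference was 3.67 (12.7-fold). With no normalization it was 12.1-fold, and under normexp the log2 difference was 3.43. The plus-strand probe of the same exon gave 11.1 and 27.0, a normalized log2 difference of 2.04, and was detected on the paraquat array only.

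Exon 10625 gave signals of 203 and 1499, a log2 difference of 3.64 (12.5-fold). It lies in column 142, where few members were higher, and its difference relative to nearby probes was 3.88. Without normalization the difference was 7.38-fold. Its plus-strand probe gave 36.9 and 44.9, a normalized log2 difference of 1.14. Both probes of this exon were thus higher on the normalized scale, the minus probe by more.

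The other higher members were brighter or changed less. Exon 10560 gave 550 in the control lungs and 2505 after paraquat, a log2 difference of 2.89 (7.40-fold), with plus-strand signals of 21.7 and 24.0. Exon 11569, the brightest of the 5, gave 1946 and 7596, a difference of 2.43 (5.38-fold), with plus-strand signals of 44.7 and 19.2. Exon 11355 gave 132 and 505, a difference of 2.79 (6.93-fold), with plus-strand signals of 30.8 and 11.3. For all 5 the minus probe was higher on the paraquat array by at least 5-fold, and no plus probe was. The plus probes of exons 11122, 10625 and 10560 were still higher, by normalized log2 differences of 2.04, 1.14 and 0.92. Those of exons 11569 and 11355 were lower, by -0.40 and -0.69. Without any normalization the ratios of exons 10560, 11569 and 11355 were 4.56, 3.90 and 3.84, so these 3 calls rest on the arrays being scaled to each other.

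Among the lower members, exon 11384 gave a signal of 660 in the control lungs and 21.0 after paraquat. Its log2 difference was -4.14 (17.7-fold) with a spot error of 0.29, and the plus-strand probe gave 57.0 and 24.2. Exon 10816 gave 922 and 41.6, a log2 difference of -3.63 (12.4-fold), while its plus-strand probe was detected on neither array, at 15.0 and 3.13. Exon 10348 gave 1889 and 134, a difference of -3.03 (8.17-fold), and its plus-strand probe gave 43.0 and 14.0. All 3 were well above background in the control lung and far dimmer after paraquat. Relative to nearby probes their differences were -4.11, -3.92 and -2.82. Their sizes depended more on the background and scaling. Under normexp the log2 differences were -2.62, -2.62 and -2.51, and with no normalization the folds were 31.5, 22.2 and 14.1.

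**Figure D3:**
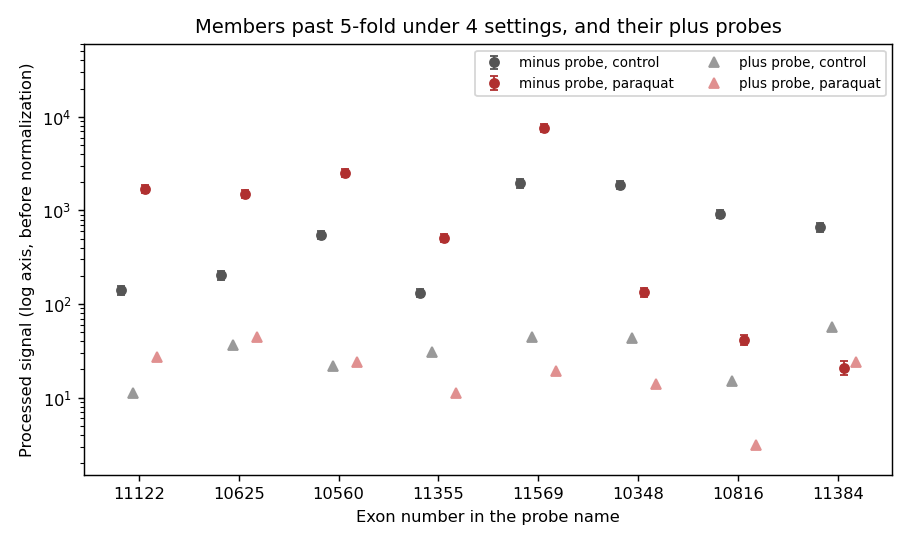
Processed signal before normalization (log axis) of the 8 members past 5-fold under all 4 settings, and of the plus-strand probes of the same exons. Circles are minus-strand probes with the software's spot error as bars, and triangles are plus-strand probes, shown without error; each point is 1 spot on 1 array. The 5 exons on the left are brighter on the paraquat array and the 3 on the right dimmer, while the plus-strand probes are at or below 57.0 on both arrays.

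Members detected in only 1 lung were mostly dim, and their folds are lower bounds against the lowest detected signal of the other array. Of the 73 members detected on the paraquat array only, 36 had a bound of at least 2-fold and 8 of at least 5-fold. Such counts are not given for all probes detected on 1 array only, so they do not set the members apart. Exon 10114 had the largest bound, with signals of 13.7 in the control lungs and 254 after paraquat, at least 22.9-fold higher. Its plus-strand probe was bright on both arrays, at 1678 and 1039, with a normalized log2 difference of -0.02. In this exon the minus probe thus appeared beside a plus probe that hardly moved.

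For exon 10569 the signals were 16.2 and 174 (at least 15.8-fold higher), and its plus-strand probe was detected on neither array. For exon 11065 the signals were 3.86 and 131 (at least 11.9-fold higher), again with no detected plus-strand signal. Exon 11817 gave 6.08 and 126 (at least 11.5-fold higher) and exon 11922 gave 3.86 and 94.1 (at least 8.60-fold higher). Of these 73 members 51 lay in columns 1 to 64, the zone with frequent higher calls. Of all 2668 probes detected on the paraquat array only, 1734 lay there.

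Of the 218 members detected on the control array only, 78 had a bound of at least 2-fold and 16 of at least 5-fold. Here too the counts over all probes are not given. Exon 10646 gave 304 in the control lungs and 7.28 after paraquat (at least 13.0-fold lower). Its plus-strand probe went the same way, from 151 to 7.39. In exons 10273 and 10052 the plus-strand probe was detected on neither array, and in exons 10021 and 10814 it was detected on both, with log2 differences of -0.34 and 0.05.

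None of these 4 had a plus probe at least 5-fold lower. Exon 10273 gave 255 and 2.65 (at least 10.9-fold lower), and exon 10052 gave 235 and 2.96 (at least 10.1-fold lower). Exon 10021 gave 234 and 10.1 (at least 10.0-fold lower) and exon 10814 gave 199 and 9.53 (at least 8.51-fold lower). Of all 89 members that were at least 5-fold lower, 40 had a plus-strand probe detected on at least 1 array, and 3 had one that was also at least 5-fold lower. Of all plus-strand probes detected so, 3.37% were lower. In the other exons the plus-strand probe was detected on neither array and could show no loss.

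The signal gap between the minus and plus probes of an exon was similar on both arrays. As 2 probes can bind with unequal strength, a gap does not give the amount of RNA from each strand, but its change between arrays can be compared. In 1247 exons with a detected probe on each array, the gap on the log2 scale had a Pearson correlation of 0.941 and a Spearman correlation of 0.933 between the arrays. These points share their probes, whose binding strengths enter both arrays alike. The minus probe was at least 4-fold brighter in 517 exons in the control lungs and 494 after paraquat, of which 438 were the same. The plus probe was at least 4-fold brighter in 428 and 442 exons, with 385 in common. Within an array, the minus and plus signals had Spearman correlations of -0.31 and -0.30 over these exons and of 0.06 and 0.04 over all 1723, so the negative sign was seen only where exons with no detected probe were left out.

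For exons with a bright minus probe a wide gap follows from the choice, so only its stability is described. Of the 109 exons whose minus probe had a signal of at least 1000 on the control array, 101 had a gap of at least 4-fold there, and 100 had one on both arrays. These exons had a median log2 difference of -0.08, and 88 of them lay within 2-fold. The plus probe of exon 10608 gave 305 and 106, and that of exon 10315 gave 179 and 148.

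Changes on the 2 signs were weakly related. In the 403 exons with both probes detected on both arrays, the differences of the minus and the plus probe had a Spearman correlation of 0.15 across exons, and had the same sign in 227 (56.3%). The median of the minus difference minus the plus difference was 0.07, with an SD of 1.38. Of the 25 minus probes at least 5-fold higher and detected on both arrays, 14 had a plus probe detected on both arrays, and 0 of these were at least 5-fold higher. Of the 17 lower ones 8 had such a plus probe, and 0 were at least 5-fold lower. Over all plus probes detected on both arrays 2.46% were higher and 1.16% lower, so counts of 0 among so few exons are near that background.

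**Figure D4:**
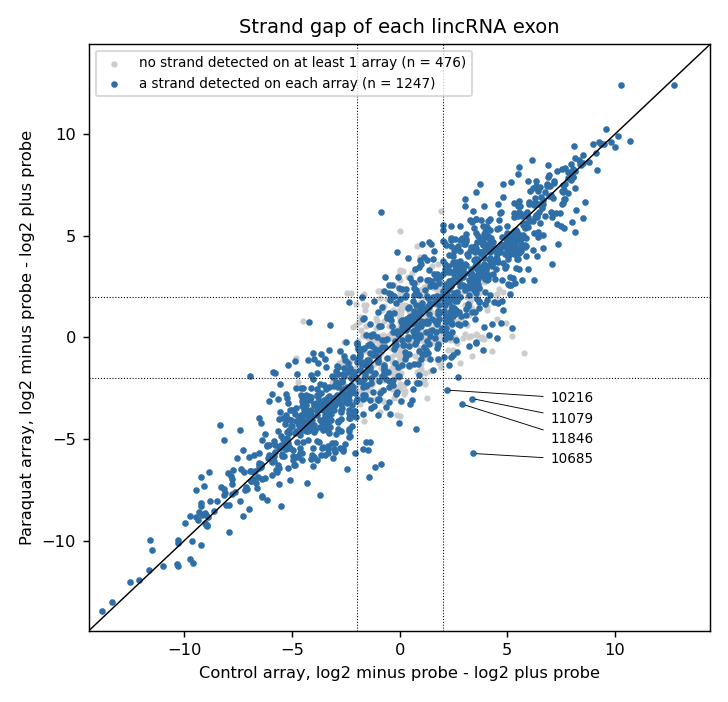
Log2 signal of the minus probe minus that of the plus probe for each of 1723 lincRNA exons on the control array (horizontal axis) and on the paraquat array (vertical axis). Blue points are the 1247 exons with a detected probe on each array, the solid line marks an equal gap, and dotted lines mark 4-fold. The points follow the solid line, and the 4 labelled exons changed from a brighter minus probe to a brighter plus probe.

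In a few of the 403 exons with both probes detected on both arrays the balance moved. Exon 10685 had the largest change, with minus-strand signals of 272 in the control lungs and 95.2 after paraquat. Its plus probe went from 24.0 to 6132, a normalized log2 difference of 8.53. The change in the gap thus came from the plus probe, since the minus probe differed by -0.58, or 0.03 relative to nearby probes. Of the other 4 named losses among these 403 exons the largest was that of exon 11384, in which the gap changed by -3.74 and the minus probe by -4.14.

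Smaller relative losses were found in exons 10572, 11061 and 10215. Exon 10572 gave 163 and 25.3 on the minus probe and 54.9 and 75.7 on the plus probe. Exon 11061 gave 124 and 15.6 on the minus probe and 28.2 and 29.4 on the plus probe. Exon 10215 was still bright, with 980 and 378 on the minus probe, while the plus probe gave 28.1 and 85.3.

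Among these 403 exons, the minus probes of the 5 largest relative gains all lie in columns 1 to 64, where higher calls were frequent. The minus probes of the 5 largest losses all lie above column 80. However, the plus probe of exon 10685, which differed by 8.53, lies in columns 1 to 64. The columns of the other plus probes are not given. For these exons only the minus difference was corrected for nearby probes, and the plus difference was not. The part of position in the change of the gap was therefore not tested. In exon 11022, for example, the gap changed by 4.01 and the plus probe by -2.27. The corrected minus differences were 1.82 for exon 10062, 0.92 for exon 11022 and 3.27 for exon 10413, against 2.58, 1.74 and 3.75 before correction. For exons 11825 and 10228 they were 1.99 and 1.83, against 2.56 and 2.03. In exon 10062 the minus probe went from 20.4 to 69.4 while the far brighter plus probe went from 5849 to 1557. Exon 11022 had the same form, with minus signals of 31.6 and 58.5 and plus signals of 1647 and 199. In both exons the plus probe was still the brighter one after paraquat, so the gap narrowed without turning. In exon 10413 the minus probe went from 19.7 to 149 and the plus probe from 201 to 97.3. Exon 11825 gave 75.8 and 242 on the minus probe and 57.5 and 16.6 on the plus probe, and exon 10228 gave 159 and 350 against 268 and 70.1. In these last 3 exons the minus probe was the brighter one after paraquat on the normalized scale.

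A turn from a minus probe at least 4-fold brighter to a plus probe at least 4-fold brighter was seen in 4 of the 1247 exons, and the opposite turn in 0. Over all 1723 exons, without a detection filter, these turns numbered 4 and 2. Beside exon 10685 these were exons 10216, 11079 and 11846. Exon 10216 gave minus signals of 19.7 and 4.90 and plus signals of 3.86 and 27.3. Exon 11079 gave minus signals of 86.1 and 2.97 and plus signals of 7.67 and 20.6. Exon 11846 gave minus signals of 192 and 3.06 and plus signals of 24.0 and 25.1. In these 3 exons the losing probe was not detected on the paraquat array, so the size of the turn is not known. In exons 10216 and 11079 the plus probe was not detected on the control array. The control signal of the minus probe of exon 10216 was close to the lowest detected signal of 19.4.

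Detection moved between classes more often than it switched sign. Of 485 exons with only the minus probe detected on the control array, 342 (70.5%) were again minus-only on the paraquat array, and 9 had only the plus probe detected. Of 327 plus-only exons, 245 (74.9%) were again plus-only and 6 had only the minus probe detected. With both probes detected there were 594 exons in the control lungs and 479 after paraquat, of which 403 were the same.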

How the data were processed

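Each group was measured on 1 array of Arraystar's lncRNA design for mouse, whose exon names refer to mm9. The spot intensities deposited by the authors came from Agilent Feature Extraction 10.7.3.1, which subtracts background and removes spatial trends, and were not scaled between arrays. Per the file headers, a multiplicative trend was corrected on the paraquat array only, and both arrays came from 1 slide. The authors also deposited processed log2 values, which hold 707 of the members and were used as an alternative. Columns of values with no sample numbered 0.

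Spots marked non-uniform or as population outliers and the probes designed to match nothing were left out, and log2 intensities were quantile-normalized, as the study's methods state. The position-corrected difference is the difference minus the median of the 50 nearest probes detected on both arrays in the same of 5 classes of mean signal. Counts at 5-fold use signals as measured. Bounds use the lowest detected signal of the array on which the probe was not detected.

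Named are the members past 5-fold under 4 settings, the 5 brightest, the 5 largest gains and losses relative to the plus strand among exons with both probes detected on both arrays, the 5 largest bounds each way, and the longest run of changed exon numbers. Strand turns and groups of neighbouring numbers were added after their values were seen. The members, lists and rules were chosen with earlier results of these data known. A total of 17 alternatives were tried. The steps were tested on simulated data. Normexp used the median spot signal. Software was R 4.3.3 (limma 3.58.1) and Python 3.11.15 (scipy 1.17.1, matplotlib 3.10.9, pandas 2.3.3, numpy 2.4.6). Replicate spots were available only for 15 genes outside the members with 20 spots each, where the SD of the log2 difference between spots ran from 0.137 to 1.41 (median 0.19).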

Additional observations from a re-analysis of the deposited data

How the results depend on the processing

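The members at least 5-fold higher numbered 59 and those lower 89, with a median log2 difference of -0.01 over members detected on both arrays and a median strand difference of 0.07. With no normalization the counts were 30 and 177 and the median was -0.83. Normexp correction gave 6 and 3 (all probes 0.863% and 0.599%), no background subtraction 8 and 7 (all probes 1.06% and 0.778%), dim signals raised to the detection limit 33 and 33, and detection on both arrays 25 and 17. Quantile normalization over probes detected on both arrays gave 24 and 17. Relative to nearby probes 32 were higher. The authors' processed values gave 22 (3.12%) and 9 (1.27%), beside 2.73% and 1.05% of all probes. At 3-fold the counts were 120 (10.4%) and 173 (15.0%), beside 10.9% and 9.90%, and at 2-fold 196 (17.0%) and 277 (24.0%), beside 18.2% and 18.9%. Columns 1 to 64 gave 26 lower, a median of 0.46 and a strand median of -0.16, and the columns above 80 gave 12 and 48. The cause of these shifts was not tested. The 5 higher and 3 lower members were chosen for passing 4 settings, so passing those follows from the choice. Raising dim signals cannot change them, as they were detected on both arrays. All 8 also passed relative to nearby probes, without background subtraction and in the authors' values. The same held with a median shift and with quantile normalization over probes detected on both arrays. With no normalization 5 of 8 did. All of these settings re-process the same 2 arrays. No paired analysis was possible because each group has 1 array, and no array could be left out.

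The median spot error of the log2 difference was 0.317 in the 216 dimmest of the 863 members detected on both arrays and 0.204 in the 216 brightest. The SD across members did not follow it, with 0.906, 1.17, 1.19 and 1.01 from the dimmest to the brightest class. The 1 array per group gives no measure of the spread between animals.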

Other observations

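Some lower calls had neighbouring exon numbers, although neither the genomic order nor the locus behind the numbers is known here. Among the 89 lower members 7 pairs had adjacent numbers, and among the 59 higher members 2 pairs did. As the lists differ in length, these counts do not show that neighbours were more frequent among lower members. Windows of 5 consecutive numbers with at least 3 lower members numbered 4, and such windows with higher members numbered 0. These counts carry the same limit of list length, and none is given for all probes. In the windows with lower members, exons 10618, 10620, 10866 and 11387 were detected on the control array only. Their bounds were only 1.19-, 2.33-, 1.10- and 1.20-fold lower, so their 5-fold calls rest on paraquat signals below detection. Exons 10814, 10868 and 11385, also detected on the control array only, had bounds of 8.51-, 6.75- and 8.01-fold. These windows were picked after the values were seen.

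The longest run in which every member detected on both arrays was at least 5-fold lower was formed by exons 10862 and 10867. Exon 10862 gave 412 in the control lungs and 29.6 after paraquat, a log2 difference of -2.93. Exon 10867 gave 505 and 38.1, a log2 difference of -2.84. Between them lie 4 members, of which 0 were detected on both arrays. The next number, exon 10868, gave 157 and 12.6, at least 6.75-fold lower. Exon 10869 was detected on neither array and could show no loss.

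Exons 10812, 10814 and 10816 formed a second group, all dimmer after paraquat. Exon 10812 gave 446 and 43.5, a difference of -2.47, which was -1.73 relative to nearby probes and no longer 5-fold. In the group of exons 11384 to 11388, exon 11385 gave 199 and 14.0 (at least 8.01-fold lower), while exon 11388 differed by 0.08 and exon 11386 was detected on neither array. In the group from exon 10617, that exon gave 385 and 39.3, a difference of -2.40, and exon 10619 differed by -0.57. Exons 10619 and 11388, both detected on both arrays, were thus not 5-fold lower.

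Over all members, exons of adjacent number shared little. In 383 adjacent pairs detected on both arrays the change had a Spearman correlation of -0.01 and the control level one of 0.19, and all pairs share the same 2 hybridizations.

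The 2 members set aside for a non-uniform control spot were both bright and detected on both arrays. Exon 10335 gave 4966 in the control lungs and 2146 after paraquat, and exon 11097 gave 4052 and 2582.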
